A study of Mus musculus with 42 samples.

Results

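Binding of HOXA9 was compared with binding of HOXD9, its paralog from another Hox cluster, in embryoid bodies at day 3 of motor neuron differentiation. Mouse embryonic stem cell lines carried a single copy of a tagged Hoxa9 or Hoxd9 at the Hprt locus, switched on by doxycycline (Dox). All embryoid bodies received 1 µM retinoic acid and 0.5 µM of the smoothened agonist SAG at day 0, then 3 µg/mL Dox at day 2 for 24 h. Each factor has 2 ChIP-seq libraries, the 1st from a line with a Flag tag and Flag antibody and the other from a line with an HA tag and HA antibody, so 4 of the 42 samples of the series enter the comparison. The deposited lists pool both libraries of a factor, and all values below have n = 1 pooled list per factor with no spread between differentiations, tags or antibodies. The protein measured is the induced, tagged copy, not the HOX9 proteins that the cells may make themselves. The HOXA9 list held 62885 binding events and the HOXD9 list 56361 on chromosomes 1 to 19 and X. Events were ranked within each list by their estimated count of ChIP reads, and the 10000 highest of each are called the top events. An event was shared when the other list, at any rank, held an event within 100 bp.

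Depth was close for the pair, with 49.9 M aligned reads for HOXA9 and 50.3 M for HOXD9. The libraries held 22.2 and 27.7 M reads for HOXA9 and 24.3 and 26.0 M for HOXD9. Both lists were called against the same control library of 20.6 M reads, and the labels of the 4 libraries name 1 flow cell. The fraction of reads that the peak caller gave to signal was 0.233 and 0.164 in the HOXA9 libraries and 0.181 and 0.135 in the HOXD9 libraries. The ranges overlapped, but paired in the order in which the lists number them, HOXA9 was higher in both pairs. The means were 0.199 and 0.158. Whether this order follows tag and antibody is not stated. The event at rank 10000 had 187.1 estimated reads for HOXA9 and 148.3 for HOXD9, and the next event had 187.1 and 148.2. A level is the estimated ChIP read count of an event scaled to 1000000 aligned reads of its factor (RPM). The median top event reached 5.74 RPM for HOXA9 and 4.30 RPM for HOXD9.

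Hox genes lie in clusters and encode homeodomain transcription factors that give cells along the head-to-tail axis their positional identity. HOXA9, HOXC9 and HOXD9 descend from 1 ancestral gene, and their homeodomains are nearly alike. Posterior HOX proteins of this kind favour AT-rich sites such as TTTAT, often beside the cofactors PBX and MEIS, whereas TAAT is a core that homeodomains in general can bind. In the spinal cord HOX9 proteins mark thoracic and more caudal levels, and HOXC9 is known for setting thoracic motor neuron identity.

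The windows below show the DNA behind the comparison, as 101 bases centred on the HOXA9 event, or on the HOXD9 event for sites of HOXD9 alone. They were read from the plus strand of GRCm38, the assembly of the lists (mm10), and capitals mark TTTAT or its complement ATAAA. Each is named after the gene with the nearest protein-coding start site. The 4 sites with the best mean rank in the lists, which both paralogs bound strongly, were
Gpr84, chr15:103305324-103305424: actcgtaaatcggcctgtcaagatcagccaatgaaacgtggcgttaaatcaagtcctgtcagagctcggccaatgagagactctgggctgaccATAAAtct
Hoxb4, chr11:96319324-96319424: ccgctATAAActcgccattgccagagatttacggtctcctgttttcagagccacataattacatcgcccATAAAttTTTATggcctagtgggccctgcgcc
Tent4a, chr13:69429830-69429930: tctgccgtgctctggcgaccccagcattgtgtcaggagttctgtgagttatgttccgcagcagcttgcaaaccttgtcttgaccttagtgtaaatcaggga
Pck1, chr2:173171665-173171765: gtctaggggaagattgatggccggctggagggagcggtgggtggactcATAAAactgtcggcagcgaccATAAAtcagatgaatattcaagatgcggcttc
The 3 shared sites with the largest HOXA9 to HOXD9 ratio among sites in both top lists were
3110018I06Rik, chr12:107648147-107648247: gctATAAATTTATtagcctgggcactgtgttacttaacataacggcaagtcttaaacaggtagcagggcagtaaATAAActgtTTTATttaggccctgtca
Kif28, chr1:179723248-179723348: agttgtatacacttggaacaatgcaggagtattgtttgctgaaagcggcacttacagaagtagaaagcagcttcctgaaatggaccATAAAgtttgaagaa
Kcnma1, chr14:23643334-23643434: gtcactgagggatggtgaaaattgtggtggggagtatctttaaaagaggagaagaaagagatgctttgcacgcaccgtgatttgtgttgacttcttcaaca
The 3 with the smallest ratio were
BC052040, chr2:115509558-115509658: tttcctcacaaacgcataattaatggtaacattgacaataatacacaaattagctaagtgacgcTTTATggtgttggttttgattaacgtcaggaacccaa
Chl1, chr6:103498581-103498681: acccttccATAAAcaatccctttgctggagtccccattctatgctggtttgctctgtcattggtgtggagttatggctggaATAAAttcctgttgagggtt
Arl15, chr13:113880204-113880304: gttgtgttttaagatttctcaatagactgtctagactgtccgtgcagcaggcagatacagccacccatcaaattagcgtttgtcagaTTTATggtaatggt
The 3 highest HOXA9 events with no HOXD9 event within 1000 bp were
Adamtsl1, chr4:86097252-86097352: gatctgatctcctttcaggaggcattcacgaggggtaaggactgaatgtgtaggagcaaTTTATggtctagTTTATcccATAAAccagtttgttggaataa
Rarb, chr14:17170886-17170986: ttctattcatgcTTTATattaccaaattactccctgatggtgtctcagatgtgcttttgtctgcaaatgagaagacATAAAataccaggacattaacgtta
Itga4, chr2:79206571-79206671: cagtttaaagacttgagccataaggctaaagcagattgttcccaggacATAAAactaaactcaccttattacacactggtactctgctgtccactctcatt
The 3 highest HOXD9 events with no HOXA9 event within 1000 bp were
4921530L21Rik, chr14:95352392-95352492: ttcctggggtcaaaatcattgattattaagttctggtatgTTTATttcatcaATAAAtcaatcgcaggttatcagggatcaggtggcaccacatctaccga
Ipo11, chr13:106204459-106204559: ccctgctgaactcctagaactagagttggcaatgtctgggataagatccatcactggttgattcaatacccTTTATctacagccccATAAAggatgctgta
Mat2b, chr11:39589249-39589349: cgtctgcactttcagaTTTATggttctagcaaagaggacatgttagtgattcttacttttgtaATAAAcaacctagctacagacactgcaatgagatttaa
The HOXA9 event inside the retinoic acid synthesis gene Aldh1a2, described further on, was
Aldh1a2, chr9:71217340-71217440: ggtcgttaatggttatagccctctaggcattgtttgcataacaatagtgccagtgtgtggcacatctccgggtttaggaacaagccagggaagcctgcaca
TTTAT stood in 3 of the first 4 windows and in all 3 windows of HOXA9 alone, but also in the 3 windows of HOXD9 alone and the 3 with the smallest ratio. The Hoxb4 window holds ATAAA and TTTAT 2 bases apart in its right-hand part. The Kcnma1 and Aldh1a2 windows hold neither form. In these windows the motif did not separate the paralogs, and shares over many sites follow below.

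Nearly all strong sites of one paralog were also called for the other. Of the top 10000 HOXA9 events 9515 had a HOXD9 event within 100 bp, which is 95.2% (95% Wilson interval 94.7 to 95.6%). Of the top 10000 HOXD9 events 9836 had a HOXA9 event, which is 98.4% (98.1 to 98.6%). Wilson intervals here and below cover counting error only. The remaining 485 HOXA9 and 164 HOXD9 events are called HOXA9 alone and HOXD9 alone. Over all ranks the share without a partner was 33.8% of HOXA9 events and 26.5% of HOXD9 events, so lacking a partner was less frequent among top events than in the lists as a whole. The partner lay on the very same base for 8119 of the 9515 shared HOXA9 events (85.3%), in lists that the caller aligned between conditions.

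Sharing declined with rank. In the 1000 highest HOXA9 events 99.2% had a HOXD9 event and in ranks 9001 to 10000 91.5% did. For HOXD9 the same shares were 99.9% and 96.8%. The rank of the partner was less tightly kept. Among the 1000 highest HOXA9 events the partner had a median HOXD9 rank of 632.5, and for ranks 9001 to 10000 the middle 50% of partners ran from rank 6354.5 to 17476. Counting only partners that were themselves top events, 7024 of the top HOXA9 events (70.2%, 69.3 to 71.1%) and 6955 of the top HOXD9 events (69.6%, 68.6 to 70.4%) were shared. Of the 100 highest HOXA9 events 65 were among the 100 highest of HOXD9, and all 100 were among its top 10000.

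**Figure D1:**
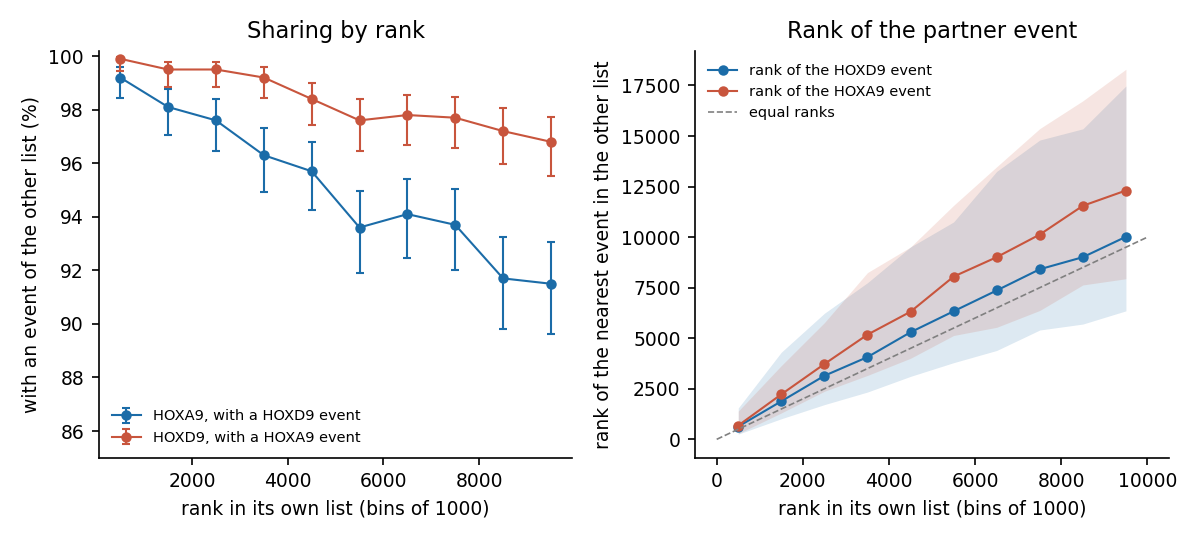
Left, the percentage of events with an event of the other list within 100 bp, by rank in bins of 1000 (points, with 95% Wilson intervals as bars; the axis starts at 85%). It falls from 99.2% to 91.5% for HOXA9 and from 99.9% to 96.8% for HOXD9. Right, the median rank of the nearest event in the other list for shared events (lines) with its middle 50% (shading), which widens with rank.

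The amount of binding agreed moderately. A matched site is a pair of events that are each other's nearest within 100 bp, with at least 1 of them in a top list, and there were 12227. Their HOXA9 and HOXD9 levels had a Spearman correlation of 0.48 across sites, a description with no test, since neighbouring sites share libraries and sequence. Choosing sites by rank lowers this value, because a site low for both cannot enter. Over the 6890 sites with both events in a top list the correlation was 0.64, and over all 41351 matched pairs of any rank it was 0.73.

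HOXA9 levels were the higher at 68.4% of matched sites when scaled to aligned reads and at 51.1% when scaled to the reads assigned to signal. With aligned reads the median log2 ratio of HOXA9 to HOXD9 level was 0.33, with a middle 50% of -0.12 to 0.86, and 8359 of 12227 sites had a ratio above 0. Among the 6890 sites with both events in a top list, the median was 0.63 over the 83 with a mean rank up to 100 and 0.31 over the 2698 with a mean rank from 5000 to 10000. With signal reads every log2 ratio fell by 0.31 and the median became 0.02, with 6250 sites above 0. The order of the sites does not change with this shift, so ratios below are best read against the median of 0.33.

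At least 2-fold differences were uneven between the paralogs. HOXA9 was at least 2-fold higher at 2414 matched sites (19.7%) and HOXD9 at 312 (2.55%). Over matched pairs of any rank the same fold was passed by 9.62% towards HOXA9 and 1.47% towards HOXD9. With scaling to the signal reads the counts were 1450 and 701. Most of the 2414 and 312 sites were top events of 1 factor only. Among the 6890 sites in both top lists 781 were at least 2-fold higher in HOXA9 and 14 in HOXD9. These 2 counts use aligned reads and were not repeated with signal reads. The lowest top event had 3.75 RPM for HOXA9 and 2.95 RPM for HOXD9. Within this set a 2-fold lean to HOXD9 therefore needed a higher level than a lean to HOXA9.

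**Figure D2:**
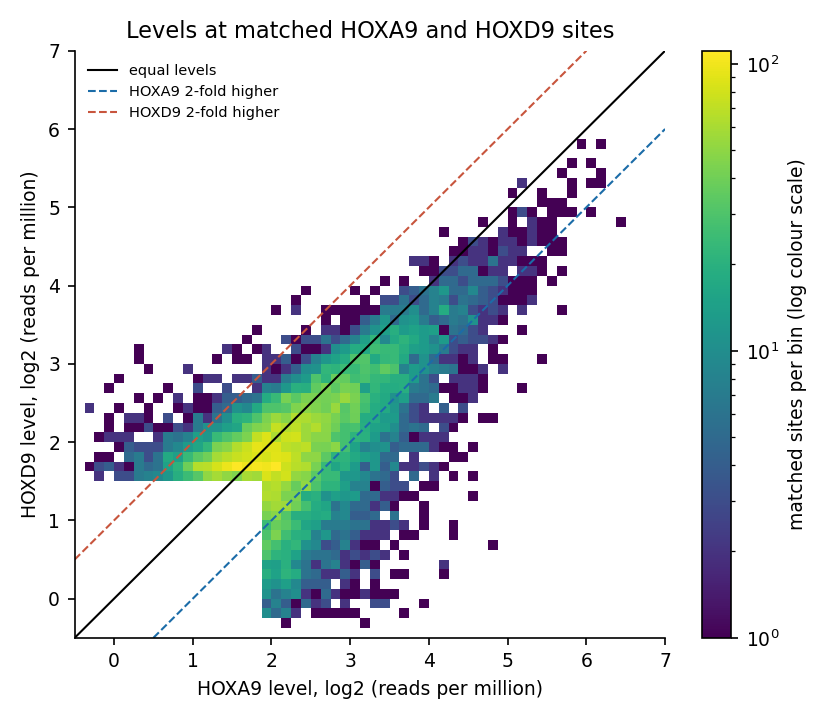
HOXA9 level (x) against HOXD9 level (y) at the 12227 matched sites, both in log2 RPM, as a count of sites per bin on a log colour scale. The solid line marks equal levels and the dashed lines a 2-fold difference. More sites lie beyond the HOXA9 line (2414) than beyond the HOXD9 line (312). The empty lower left corner is made by the choice of top events.

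The strongest shared sites included introns and flanks of Hox genes. The site of best mean rank lay 5.24 kb from the start of Gpr84, which encodes a fatty acid receptor, with 72.4 RPM for HOXA9 and 55.2 RPM for HOXD9, rank 2 in both lists. The event in the Hoxb4 intron had 72.0 and 43.3 RPM, a log2 ratio of 0.73 (exact 95% interval 0.66 to 0.81 from the read counts). The event in the Hoxc4 intron had 66.0 and 39.9 RPM. Sites near Tent4a, Pck1 and Epha7 were also among the 8 of best mean rank, and the Epha7 site was 926 kb from the start of this ephrin receptor gene. Event lists of other factors at the same day were set beside these sites. They were those of HOXC6, HOXC8, HOXC9, HOXC10 and HOXC13, each induced in lines of its own. Lists of the cofactor MEIS came from iHoxc6, iHoxc9 and iHoxc10 cells, which are named after the induced factor. Each MEIS list rests on a single library with no replicate, and the HOXC10 list pools libraries with different tags. All 8 of these sites had an event of HOXC6, HOXC8, HOXC9 and HOXC10 within 100 bp. Of all 12227 matched sites 6131 had a HOXC6, 9289 a HOXC8, 11365 a HOXC9 and 9896 a HOXC10 event. That wider set includes weaker sites, so the count of the 8 is a description. The log2 ratio of these 8 ran from 0.15 to 0.84, and for 2 of them, near Pck1 and Epha7, it fell below 0 when scaled to signal reads. The highest HOXA9 event of all lay in the Hoxc5 intron, with 90.4 RPM against 29.1 RPM and rank 27 for HOXD9. This site was singled out after its values were seen. Its log2 ratio of 1.64 lay above all 8 others.

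Sites that leaned to HOXA9 in both top lists reached a larger fold than those that leaned to HOXD9, less so with scaling to signal reads. The 8 largest log2 ratios ran from 2.42 to 2.93, or from 2.11 to 2.62 with signal reads. The top 1, 160 kb from 3110018I06Rik, had 22.9 RPM for HOXA9 and 3.01 RPM for HOXD9, a ratio of 2.93 (2.68 to 3.18). The intron of Kif28, a kinesin gene, had 21.4 against 3.43 RPM, and the intron of the calcium-activated potassium channel gene Kcnma1 23.7 against 3.85 RPM. A site 239 kb from the chemokine gene Cxcl12 had 29.0 against 4.93 RPM. The others lay in introns of the galactosyltransferase gene B3galt1, of Spats2l and of the helicase gene Ascc3, and near Mamdc2. All 8 had a HOXC9 event, 7 a HOXC13 event and 3 a MEIS event in iHoxc10 cells. Of all 12227 matched sites 93.0% had a HOXC9 event, 42.3% a HOXC13 event and 39.8% a MEIS event in iHoxc10 cells. The HOXC9 and MEIS counts of the 8 lay near these shares. The 8 were drawn from the 6890 sites in both top lists, so the shares describe a wider set that includes weaker sites.

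The 8 smallest log2 ratios ran from -1.70 to -1.12, or from -2.01 to -1.43 with scaling to signal reads. The site 72.1 kb from BC052040 had 4.08 RPM for HOXA9 and 13.25 RPM for HOXD9, a ratio of -1.70 (-1.93 to -1.47). The site 12.0 kb from Chl1, a gene for an adhesion molecule of the L1 family, had 5.29 against 15.8 RPM. The intron of the small GTPase gene Arl15 had 4.78 against 13.9 RPM. The others lay near Plekhb2, the type II cadherin gene Cdh11, Gm12689 and the semaphorin receptor gene Plxna2, and in the Myzap intron. All 8 had HOXC9 and HOXC10 events, 4 had a HOXC13 event and 7 a MEIS event in iHoxc10 cells. With HOXC10 events at 80.9% of all matched sites and the shares given above for the others, the HOXC9, HOXC10 and HOXC13 counts lay near those of this wider set. These sites were chosen by their ratio, so the ratios are a description.

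Many of the alone events were near misses in position. Of the 485 HOXA9-alone events 198 (40.8%, 36.5 to 45.3%) had a HOXD9 event between 101 and 200 bp away and 252 had one within 1000 bp. Of the 164 HOXD9-alone events 101 (61.6%, 54.0 to 68.7%) had a HOXA9 event within 200 bp and 115 within 1000 bp. This left 233 HOXA9 and 49 HOXD9 events with no event of the other within 1000 bp, and 181 and 32 with none within 5000 bp. The alone events were seldom the strongest. The best rank was 379 for HOXA9 and 781 for HOXD9, and the median ranks were 6816 and 7112.

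Among the 8 highest HOXA9-alone events the nearest HOXD9 event lay from 105 bp to 27274 bp away. The highest, 375 kb from the sialyltransferase gene St3gal1, had 18.7 RPM, and a HOXD9 event of 64.7 estimated reads stood 119 bp off. The event near Stxbp6 and those in the introns of Schip1 and of Ppargc1a, a transcriptional coactivator gene, likewise had a HOXD9 event at 105 to 111 bp. Farther from any HOXD9 event were the intron of Adamtsl1 with 14.4 RPM, an intergenic site 352 kb from the retinoic acid receptor gene Rarb with 13.5 RPM and a site 48.9 kb from the integrin gene Itga4 with 12.8 RPM.

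Of the 8 highest HOXD9-alone events 5 had a HOXA9 event within 200 bp. The highest, 669 kb from the mineralocorticoid receptor gene Nr3c2, had 9.65 RPM with a HOXA9 event 167 bp away. In the Schip1 intron the alone events of both paralogs stood 111 bp from each other. Others lay in introns of Rsu1, of Dab1, an adaptor gene of reelin signalling, and of the GTPase gene Rab2a. A HOXA9 event stood 122, 110 and 106 bp from them. At Dab1 and Rab2a this HOXA9 event was the stronger, with 685.6 and 410.4 estimated reads against 359.4 and 336.9 for HOXD9. At Rsu1 it was the weaker, with 217 against 373.1. The highest with no HOXA9 event within 1000 bp lay 529 kb from 4921530L21Rik with 8.59 RPM, 8744 bp from the nearest HOXA9 event. The next, 721 kb from the importin gene Ipo11, had 6.58 RPM.

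The alone sites of the paralogs differed in which other HOX factors bound there. A HOXC9 event stood within 100 bp at 441 of 485 HOXA9-alone sites (90.9%, 88.0 to 93.2%) but at 74 of 164 HOXD9-alone sites (45.1%, 37.7 to 52.8%), a gap of 45.8 percentage points. At shared sites the HOXC9 shares were 96.9% for HOXA9 and 92.1% for HOXD9, and over events of any rank 67.4% and 55.5%, so the lists as a whole differed in the same direction by less. A HOXC13 event stood at 53.0% of HOXA9-alone and 18.9% of HOXD9-alone sites, against 48.4% and 39.2% of shared sites. For HOXC9 and HOXC13 the HOXA9-alone share lay closer to that of shared sites than the HOXD9-alone share did. MEIS in iHoxc10 cells went the other way, at 12.2% of HOXA9-alone and 40.9% of HOXD9-alone sites, against 40.7% and 46.0% of the shared sites. MEIS in iHoxc6 cells stood at 12.4% and 28.7% of the alone sites, and in iHoxc9 cells at 36.5% and 43.9%. HOXC10 events were fewer at alone sites of either paralog (34.2% and 38.4%) than at shared sites (82.3% and 85.3%). Over HOXA9 and HOXD9 events of any rank HOXC10 stood at 35.9% and 39.0%, near the alone shares. HOXC13 stood at 29.7% and 22.7% of events of any rank, and only the HOXD9-alone share lay near its value. MEIS in iHoxc10 cells stood at 14.3% and 16.5% of them, and only the HOXA9-alone share lay near its value. With alone meaning no event of the other within 1000 bp, HOXC9 stood at 95.3% of 233 HOXA9 and 51.0% of 49 HOXD9 sites and MEIS in iHoxc10 cells at 5.15% and 46.9%. HOXC10 then stood at 32.2% of the HOXA9 but 59.2% (45.2 to 71.8%) of the HOXD9 sites, still below the shared sites. The lists compared differ in length, from 8154 events for MEIS in iHoxc6 cells to 115819 for HOXC13. List length bears on every share and on the size of the gap between the paralogs. Gaps are therefore not comparable from list to list.

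TTTAT was more frequent at HOXA9-alone than at shared HOXA9 sites with the distances used here, but not with sharing within 50 bp (a difference of 0.90 percentage points, half-width of the 95% interval 3.28) or with the motif within 25 bp (4.24, half-width 4.48). It stood within 50 bp, on either strand, at 67.6% (63.3 to 71.6%) of HOXA9-alone sites and 57.0% (56.0 to 58.0%) of shared top HOXA9 sites. Windows of the same length 1 kb to either side of shared HOXA9 sites held it in 31.9%. For HOXD9 the shares were 45.1% (37.7 to 52.8%) at alone and 52.3% (51.4 to 53.3%) at shared sites, and these intervals overlap. With alone meaning no partner within 1000 bp the HOXA9 share was 76.4% and the HOXD9 share 57.1%, so the HOXD9 difference from shared sites changed sign. TAAT stood at 64.7% (60.4 to 68.9%) of HOXA9-alone and 75.0% (67.9 to 81.0%) of HOXD9-alone sites against 68.2% and 68.4% of shared sites. The intervals of the alone classes overlap slightly, and with the 1000 bp limit the alone shares were 68.7% and 79.6%. TGATTTAT, the joint motif of PBX and a posterior HOX protein, which contains TTTAT, stood at 5.36% and 4.27% of alone sites and 8.84% and 10.07% of shared sites, against 0.69% in the flanking windows of the shared sites of either paralog.

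**Figure D3:**
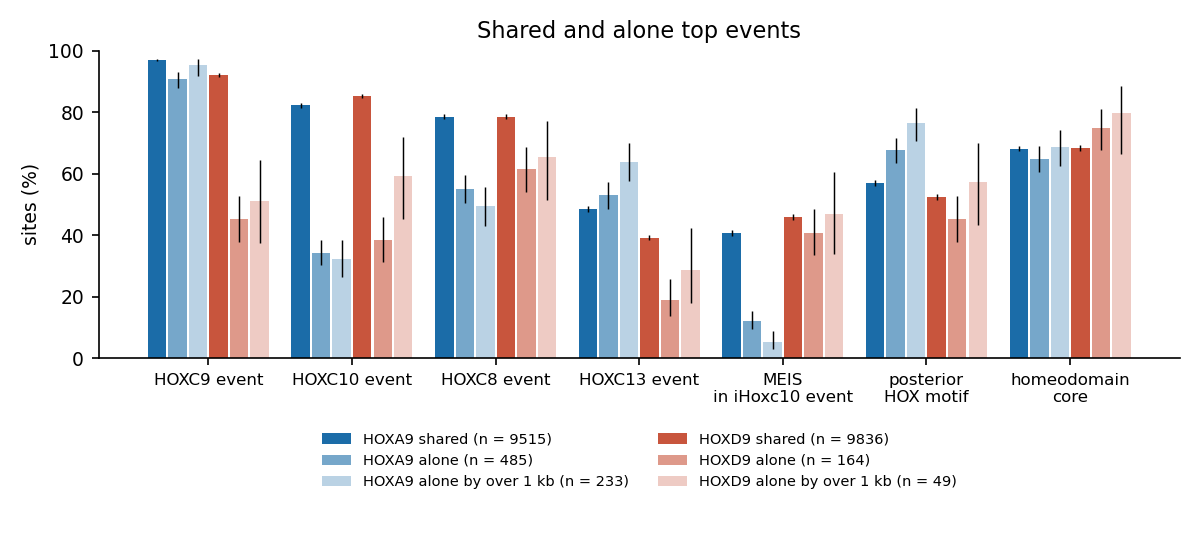
Percentage of top events that have an event of another factor within 100 bp or a motif within 50 bp, for shared events, alone events and events alone by over 1 kb of HOXA9 (blue) and HOXD9 (red). The posterior HOX motif is TTTAT and the homeodomain core TAAT. Bars are shares with 95% Wilson intervals. HOXC9 stands at 90.9% of HOXA9-alone and 45.1% of HOXD9-alone sites, and MEIS in iHoxc10 cells at 12.2% and 40.9%.

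The same contrast ran through the matched sites as a gradient. The 12227 matched sites were split into 5 groups of equal size by log2 ratio, with medians of -0.49 in the lowest and 1.42 in the highest group. From the lowest to the highest group HOXC13 events rose in share from 22.6% (21.0 to 24.3%) to 62.7% (60.8 to 64.6%), and HOXC9 events from 80.5% to 97.5%. MEIS events in iHoxc10 cells stood at 47.0% (45.0 to 49.0%) of sites in the lowest, 48.5% in the second and 22.3% (20.7 to 24.0%) in the highest group. MEIS events in iHoxc6 cells stood at 31.6%, 37.0% and 18.6% of the lowest, middle and highest group, and those in iHoxc9 cells at 59.4%, 63.6% and 53.7%, so neither fell steadily. HOXC10, HOXC8 and HOXC6 events were likewise most frequent away from both ends, and HOXC10 stood at 80.5%, 86.2% and 69.9% of the lowest, middle and highest group. The groups do not change with the scaling of the ratio.

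Sequence and position followed the ratio as well. TTTAT rose from 45.9% (43.9 to 47.9%) in the lowest to 65.3% (63.4 to 67.2%) in the highest group, while TAAT stood at 67.7% and 69.9%. TGATTTAT went from 10.6% (9.47 to 11.9%) to 6.17% (5.29 to 7.20%), so TTTAT in and outside the PBX motif moved in opposite directions. TTTAC, the form favoured by HOXC13, stood at 24.7% and 29.6%. Sites within 1 kb of a protein-coding start site made up 9.89% (8.77 to 11.1%) of the lowest and 1.72% (1.27 to 2.31%) of the highest group. The 586 matched sites near a start site had a median log2 ratio of -0.12, against 0.35 at the 11641 others. The median share of G and C in the window was 43.6% in the lowest and 40.6% in the highest group, and the part of base composition in these gradients was not tested.

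The levels of the groups were unequal, with a median HOXA9 level of 2.74 RPM in the lowest and 6.41 RPM in the highest group. The gradient was therefore recomputed among the highest of 3 equal groups of matched sites by mean level, again in 5 groups by ratio. HOXC9 stood at 97.1% of the lowest and 99.8% of the highest group there, a far smaller step than over all matched sites. Its share was close to the maximum in both, which leaves little room for a step. HOXC13 stood at 34.2% and 73.6%, MEIS in iHoxc10 cells at 70.5% and 39.4%, TTTAT at 49.9% and 65.6%, TGATTTAT at 15.1% and 6.13%, and start sites at 7.60% and 1.60%. In the middle of the 3 groups by level HOXC9 stood at 88.8% (86.5 to 90.8%) of the lowest and 96.9% (95.5 to 97.9%) of the highest ratio group.

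**Figure D4:**
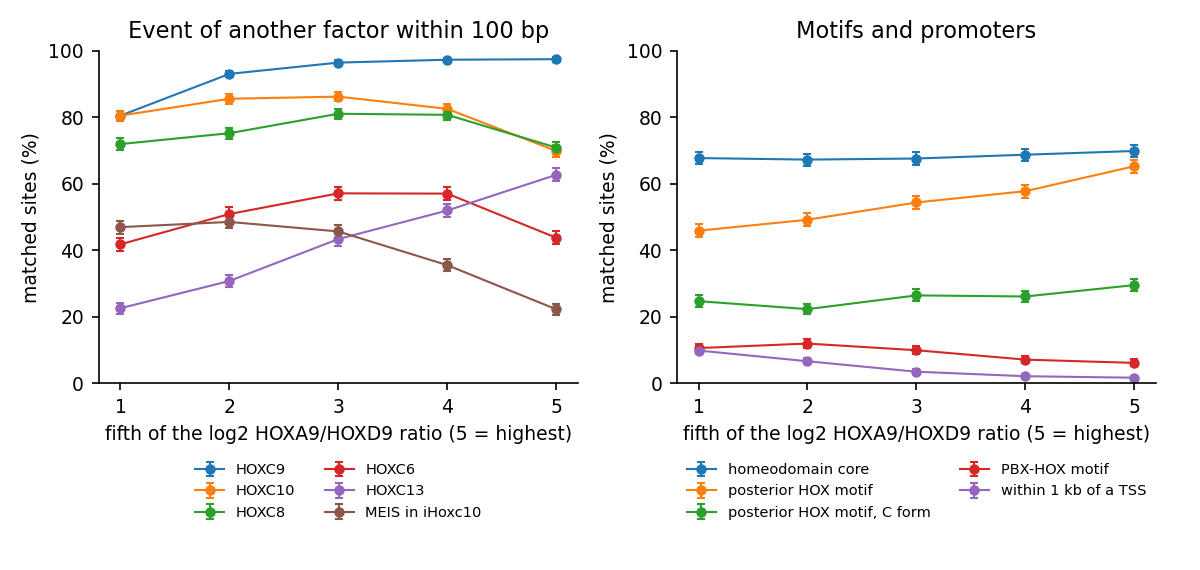
Matched sites in 5 groups of equal size by log2 HOXA9 to HOXD9 ratio (x, 5 is highest for HOXA9) against the percentage with an event of another factor within 100 bp (left) or with a motif within 50 bp or a start site within 1 kb (right). The homeodomain core is TAAT, the posterior HOX motif TTTAT, its C form TTTAC and the PBX-HOX motif TGATTTAT. Bars are 95% Wilson intervals. HOXC13 climbs from 22.6% to 62.7% and TTTAT from 45.9% to 65.3%.

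Combinations of events gave the widest spread in ratio. The 889 matched sites with a HOXC13 event and no HOXC10 event had a median log2 ratio of 0.95, and 47.6% of them were at least 2-fold higher in HOXA9. The 5613 sites with HOXC10 and no HOXC13 had a median of 0.12, and 10.5% were at least 2-fold higher in HOXA9. The 338 sites with HOXC10 and no HOXC9 had a median of -0.43, and 13.3% were at least 2-fold higher in HOXD9 against 2.07% in HOXA9. The 11365 sites with a HOXC9 event had a median of 0.37 and the 862 without 1 of -0.28. These sets were not split by level. The HOXC9 step between ratio groups was smaller among sites of the middle level than over all matched sites, and smallest among those of the highest level.

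Set against the top 10000 events of the other factors, the paralogs differed most in their overlap with HOXC9, the other HOX9 protein assayed. HOXA9 shared 53.9% (52.9 to 54.9%) of its top events with top HOXC9 events and HOXD9 39.6% (38.6 to 40.6%). For HOXC13 the shares were 13.7% and 8.56%. HOXD9 had the larger share for HOXC10, 60.6% (59.6 to 61.6%) against 57.3% (56.3 to 58.3%), and for MEIS in iHoxc10 cells, 39.9% against 34.2%. For HOXC6 (40.7% and 40.9%) and HOXC8 (41.5% and 41.2%) the intervals of the paralogs overlapped. The 70.2% that HOXA9 shared with HOXD9 was above each of these. Both paralogs shared more of their top events with HOXC10 than with HOXC9. These orders hold for the top 10000 events of the other factors only. With their full lists HOXC9 stood at 96.9% and 92.1% of shared HOXA9 and HOXD9 sites and HOXC10 at 82.3% and 85.3%. HOXC13 stood at 48.4% and 39.2% of them, a wider gap than that of HOXC9.

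Both paralogs bound near the same developmental genes. Of 153 genes in 12 lists 120 had at least 1 top event of each factor within 50 kb of the gene body, 3 had top HOXD9 events only, none had top HOXA9 events only and 30 had neither. Among all 21755 protein-coding genes 4644 (21.3%) had both, 902 (4.15%) HOXA9 only and 1498 (6.89%) HOXD9 only. The genes of the lists were chosen as known or likely HOX targets and many are long, so their higher share is a description. The 3 genes with HOXD9 alone in the top were the retinoid receptors Rxrb and Rxrg and the retinoic acid binding protein gene Crabp2. Each had 1 matched site, with a log2 ratio of -0.27, -0.27 and 0.08, so HOXA9 was bound there below its top 10000.

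All 4 Hox clusters were bound by both. In the HoxA cluster with 5 kb on either side 28 top events of each factor stood in 115 kb. HoxB without Hoxb13 had 15 top HOXA9 and 17 HOXD9 events, HoxC 8 and 9, and HoxD 12 and 13. Only 1 event of the clusters, in HoxD for HOXA9, was alone. The median log2 ratio was 0.14 in HoxA, 0.38 in HoxB, 0.73 in HoxC and 0.20 in HoxD. At least 2-fold higher in HOXA9 were 3 of 29 matched sites in HoxA, 5 of 19 in HoxB, 4 of 9 in HoxC and 0 of 13 in HoxD, against 19.7% of all matched sites. None was at least 2-fold higher in HOXD9, against 2.55% of all matched sites. With so few sites these counts show nothing particular to the clusters. The range within a cluster was wide, from -0.56 to 2.84 in HoxB, beside which the differences between cluster medians are small.

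The list medians of the log2 ratio ran from 0.10 to 0.52, 6 above and 6 below the 0.33 of all matched sites, and each list's middle 50% of sites spanned 0.33. The highest was that of the motor neuron identity genes (33 matched sites) and the lowest that of the retinoic acid pathway genes (26 sites). For the cofactor genes, which include Pbx3, Meis1 and Meis2, the median was 0.48 over 63 sites. Meis2 had 15 top HOXA9 and 16 top HOXD9 events and Meis1 13 and 16. The cofactor genes Pbx2, Pbx4 and Pknox1 had none of either. Foxp1, which marks limb-level motor columns, had 15 and 16, and the guidance receptor gene Robo2 19 and 22. With scaling to signal reads 7 of the 12 medians were above 0.

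**Figure D5:**
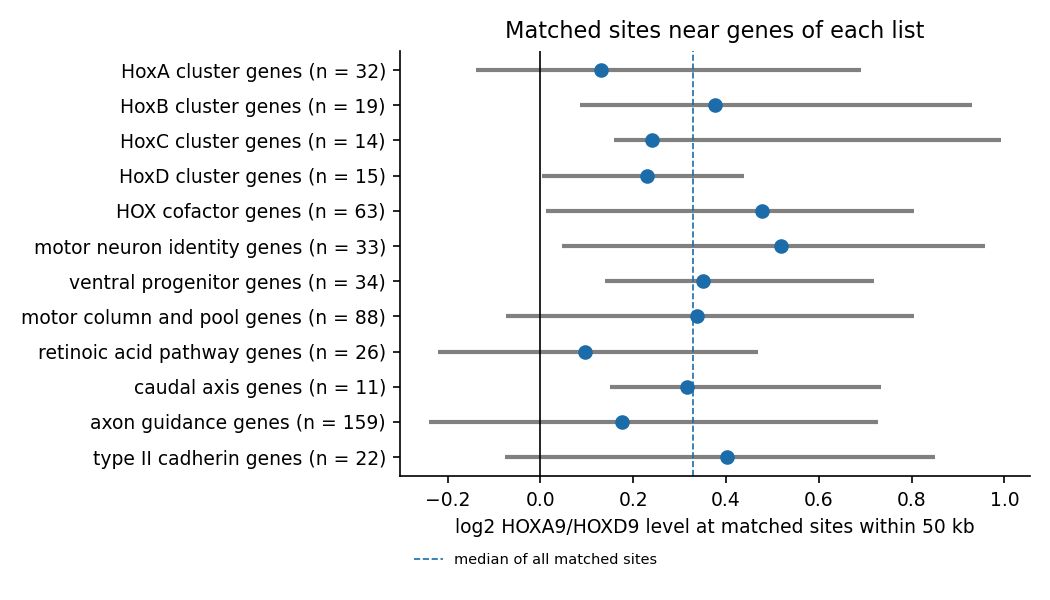
Median (points) and middle 50% (bars) of the log2 HOXA9 to HOXD9 ratio at matched sites within 50 kb of the genes of each list, with n the number of sites. The dashed line is the median of all matched sites, 0.33, and every bar crosses it.

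Single genes ranged further than the lists, but their medians rest on few sites and those named were picked for their lean. The wider range is therefore no result about these genes. Sema3a, a gene for a repellent axon guidance ligand, had 5 top HOXA9 events and 1 top HOXD9 event, and 3 matched sites with a median log2 ratio of 1.95, 2 of them at least 2-fold higher in HOXA9. Its site at position 13144945 of chromosome 5 had 8.00 RPM for HOXA9 and 1.93 RPM for HOXD9. Sema3c, of the same family, had 5 and 1, with ratios from 0.36 to 2.39 over 5 sites. Slit3, a ligand of the Robo receptors, had 10 top HOXA9 and 17 top HOXD9 events and a median ratio of -0.44 over 16 sites. Its highest site, at position 35544364 of chromosome 11, had 14.0 RPM for HOXA9 (rank 777) and 19.4 RPM for HOXD9 (rank 94). Lhx4, a homeodomain gene of motor neurons, had 2 and 4 with a median of -0.47 over 4 sites. Sema3a had the highest and Lhx4 the lowest median of the 88 genes with at least 3 matched sites. Of these 88 genes 8 had a median below 0, and 47 did with scaling to signal reads.

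Aldh1a2, whose enzyme makes retinoic acid and marks limb-level motor neurons, held sites of opposite lean. It had 4 top HOXA9 and 2 top HOXD9 events within 50 kb. In the intron 1.60 kb from the start site HOXA9 had an event of 16.0 RPM (rank 576) with no HOXD9 event within 100 bp. A HOXA9 event of 6.51 RPM followed 306 bp farther, where HOXD9 had 2.72 RPM, below its top 10000. At position 71241720 of chromosome 9 the order was the reverse, with 13.6 RPM for HOXA9 (rank 831) and 19.9 RPM for HOXD9 (rank 84) at an event 16 bp away. Crabp1, a retinoic acid binding protein gene, had 6 and 4 top events, and 2 of its HOXA9 events were alone, each with a HOXD9 event 175 or 177 bp off.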

How the data were processed

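ChIP-seq of tagged HOXA9 and HOXD9 was analysed from 1 deposited event list per factor, each pooling 2 libraries. According to the sources, the authors aligned reads to mm10 with Bowtie 1.0.1, keeping single best hits, used Picard 2.8.2, and called events with MultiGPS at q under 0.001. The run was joint over 6 conditions (HOXC6, HOXC9, HOXC10, HOXC13, HOXA9 and HOXD9), which aligns nearby events. HOXC8 and MEIS lists were not in it. The deposited values used were the estimated count of ChIP reads and of control reads per event, the log2 fold over control and a log2 q-value, treated as a score and used to rank in 1 alternative. The lists also hold the authors' own comparisons between conditions (mean log2 CPM, log2 fold and log2 q from edgeR 3.22.5), which were not used.

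Events on chromosomes 1 to 19 and X were kept and 31 and 39 others left out. Ranks, sharing within 100 bp, log2 ratios of counts scaled to 1000000 aligned reads (RPM) and motif shares within 50 bp were computed with Python 3.11.15, pandas 2.3.3, numpy 2.4.6 and scipy 1.17.1, and tested on simulated data. Genes and start sites are GENCODE release M21, protein-coding. Ratio intervals are exact binomial on rounded counts. The identity of the cells was not checked, since no expression values were used. No test between conditions was run, since the values used pool both libraries of a factor. Sites named are the 8 of best mean rank, largest and smallest ratio in both top lists, and highest alone for each factor, without chromosome 18, plus list genes with the most events or a lean to 1 paralog. Some items that this rule names are not reported here. Members and lists were chosen with earlier results of these data known. The alternatives are given in the closing section.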

Additional observations from a re-analysis of the deposited data

Results flagged for a closer look

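The highest event of both lists lay outside the chromosomes kept, on the mitochondrial genome at position 15529 of mm10. HOXA9 had 6253.6 estimated ChIP reads there against 610.3 control reads, a log2 fold over control of 2.49, and HOXD9 had 7596.1 against 600.2, a log2 fold of 2.71. Both deposited folds were lower than the plain ratio of these ChIP and control counts. The lists held 10 HOXA9 and 16 HOXD9 events on the mitochondrial genome. They appear here because they stand above the control in data that entered no comparison.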

How the results depend on the processing

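Each of 13 results was recomputed under the alternatives that apply to it, 18 in all, of which the 500 bp and 1000 bp limits for alone events were chosen after seeing the data. Of the 134 values 86 stayed close to the value reported, 43 moved further and 5 reversed. Counts have no direction, so they could only stay close, within a set fold, or move. Other values were called close when they lay inside the interval of the reported value. With the top 5000 and top 20000 events, where counts follow the number of events, 4869 and 18035 HOXA9 and 4965 and 19092 HOXD9 events were shared, 131 and 1965 HOXA9 and 35 and 908 HOXD9 events were alone, 3404 and 14210 top HOXA9 events were among the top of HOXD9, and 1405 and 3708 matched sites were at least 2-fold higher in HOXA9 and 132 and 568 in HOXD9. Spearman's correlation of the levels was 0.42 and 0.56 and the median log2 ratio 0.39 and 0.23. HOXA9 alone numbered 958 when sharing reached 50 bp and 287 at 200 bp, and 251 and 233 with no partner within 500 and 1000 bp, and HOXD9 alone 528, 63, 54 and 49. With events of q under 1e-10 only, alone counts were 1234 and 419, this correlation was 0.52, the median ratio 0.29, and 183 sites were at least 2-fold higher in HOXD9. The correlation was 0.51 when ranked by q and 0.49 with sharing within 50 bp. Scaled to signal reads the median ratio was 0.021 with 1450 and 701 sites at least 2-fold higher in HOXA9 and HOXD9, and scaled to a median of 1 over all pairs it was 0.21. The TTTAT share at HOXA9-alone sites exceeded that at shared sites by 10.6 percentage points as reported, by 0.90 and 16.5 points with sharing within 50 and 200 bp, by 4.24 with the motif within 25 bp (the intervals of 0.90 and 4.24 include 0), by 3.79 spelled TTAT, and by 19.1 and 19.4 with alone limits of 500 and 1000 bp. The HOXD9 difference of -7.23 points reversed to 0.95 in the top 5000, 1.75 with sharing within 200 bp, 1.05 spelled TTAT, and 3.21 and 4.79 with alone limits of 500 and 1000 bp, all with intervals that include 0. It was -12.0 in the top 20000, -12.6 with sharing within 50 bp, -13.9 with q under 1e-10 and -10.1 with the motif within 25 bp, with intervals that exclude 0. For the shifts in correlation, ratio and TTTAT share the cause was not tested. The HOXC9 difference between the alone classes and the count of genes with both paralogs stayed close under every alternative run.

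No replicate could be left out, because the lists pool the libraries. No paired analysis was possible because the lists are pooled and the results come from no test. The pooling also means that a difference between the paralogs cannot be told apart from a difference between cell lines or single immunoprecipitations, and all intervals cover counting error only. The lowest event kept had 41 estimated reads for HOXA9 and 42 for HOXD9, so binding below this depth was not detectable.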
